A study of Mus musculus with 12 samples.

Results

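Caveolins and cavins are the membrane and coat proteins of caveolae, and their 7 mouse genes (*Cav1*, *Cav2*, *Cav3*, *Cavin1*, *Cavin2*, *Cavin3*, and *Cavin4*) are described here in sorted aortic smooth muscle cells (SMCs). The genes were chosen by name, as the rows of the count matrix whose Ensembl identifiers carry these symbols, and make up 7 of 52636 genes. That choice was made with earlier results of these data known. Bulk RNA-seq was done on GFP+ SMCs of 12-week-old male C57BL/6J mice, 3 GFPiSMC and 3 Tgfbr1/2iSMCKO animals, with 1 library per animal from the ascending aorta and arch (ascending/arch) and another from the thoracic descending part. Both lines carry the tamoxifen-inducible *Myh11-CreERT2* transgene, which is expressed in smooth muscle, and the *mT/mG* reporter, which turns from red to green fluorescence once Cre has acted, and both received tamoxifen on 5 days. Tgfbr1/2iSMCKO mice in addition carry floxed alleles of *Tgfbr1* and *Tgfbr2*, the type I and type II receptors of TGF-β, so that in these samples the mouse line and the deletion cannot be told apart. The labels list 1 mg/d at 4 weeks of age and 2 mg/d at 11 weeks without saying which applies to a sample. By the study's methods, 2 mg/d from 11 weeks was the standard course, and the lower dose was reserved for some younger mice. The study places these SMC profiles 1 week after signaling was disrupted in mature aortas, which points to the course at 11 weeks.

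Caveolae are small flask-shaped pits of the plasma membrane that are very frequent in vascular smooth muscle, where they buffer membrane tension and gather receptors, ion channels, and signaling enzymes. Caveolin-1 builds the pit in most cells with caveolin-2 as its partner, and caveolin-3 takes that role in striated muscle and is also made by smooth muscle. The cavins form the outer coat: cavin-1 is required for the pit to form, cavin-2 helps to shape it, cavin-3 binds protein kinase Cδ and takes part in caveolar traffic, and cavin-4 is the striated muscle form.

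Libraries held 20467027 to 31392396 counts (median, 27351101) from 9208 to 20000 sorted cells. The unit of level is CPM, a count scaled to its TMM-corrected library total, and a gene was called different when edgeR's quasi-likelihood test gave a Benjamini-Hochberg adjusted p under 0.05 over the 22320 genes tested. *Tgfbr1* was at 196 to 292 CPM in the GFPiSMC and 198 to 295 CPM in the Tgfbr1/2iSMCKO libraries, and *Tgfbr2* was at 88.9 to 128 and 68.2 to 102 CPM. Neither receptor was called (edgeR adjusted p = 0.790 and 0.233), and whole-gene counts do not resolve the deleted exons. The 9 smooth muscle markers summed to 45192 to 53570 CPM in GFPiSMC and 38815 to 46374 CPM in Tgfbr1/2iSMCKO libraries, most of it *Acta2* (mean over 12 libraries, 28437 CPM). None of the 9 was called by edgeR (3 at an unadjusted p under 0.05), where 5.03% of all genes were called and 16.1% had such a p. Their log2 fold changes, Tgfbr1/2iSMCKO minus GFPiSMC, were positive for 5 and negative for 4, with a median of 0.23 beside 0.04 over all genes. In a bulk library, fewer cells of a type and less RNA per cell cannot be told apart.

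*Cav2* and *Cav1* lie side by side on the plus strand of chromosome 6 (GRCm38), *Cav2* (ENSMUSG00000000058.6) at 17281185 to 17289115 and *Cav1* (ENSMUSG00000007655.16) at 17306335 to 17341452, with 17219 bases between them. *Cav3* (ENSMUSG00000062694.7) lies far away on the same chromosome at 112459505 to 112472872 on the plus strand. The cavins are spread over 4 chromosomes: *Cavin1* (ENSMUSG00000004044.9) on chromosome 11 at 100956733 to 100970887 on the minus strand, *Cavin2* (ENSMUSG00000045954.7) on chromosome 1 at 51289126 to 51302960 on the plus strand, *Cavin3* (ENSMUSG00000037060.3) on chromosome 7 at 105480083 to 105482300 on the minus strand, and *Cavin4* (ENSMUSG00000028348.7) on chromosome 4 at 48663514 to 48673502 on the plus strand. The promoters below are those of the 3 members that passed the genotype test and of *Cav2*, the neighbour of *Cav1* that did not. Each is the 250 bases before the first base of the gene, 5′ to 3′ on the plus strand, from RefSeq (GRCm38.p6), with CAGAC, the letters bound by Smad proteins, in capitals where found on either strand (GTCTG on the strand shown).
Cav1, chr6:17306085-17306334: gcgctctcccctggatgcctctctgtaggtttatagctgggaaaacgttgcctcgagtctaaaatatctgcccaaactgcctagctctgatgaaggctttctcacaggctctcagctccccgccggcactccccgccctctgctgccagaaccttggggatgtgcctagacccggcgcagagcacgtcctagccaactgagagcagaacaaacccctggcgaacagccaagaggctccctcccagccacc
Cav2, chr6:17280935-17281184: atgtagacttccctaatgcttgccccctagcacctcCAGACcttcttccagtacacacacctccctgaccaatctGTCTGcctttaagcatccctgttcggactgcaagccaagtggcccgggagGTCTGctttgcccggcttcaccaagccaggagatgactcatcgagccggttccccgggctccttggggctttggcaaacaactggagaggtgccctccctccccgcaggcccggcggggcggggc
Cav3, chr6:112459255-112459504: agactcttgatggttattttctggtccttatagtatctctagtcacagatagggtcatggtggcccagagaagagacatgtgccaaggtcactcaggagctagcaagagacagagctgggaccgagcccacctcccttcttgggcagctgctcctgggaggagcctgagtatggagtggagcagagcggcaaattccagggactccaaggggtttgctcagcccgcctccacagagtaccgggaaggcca
Cavin2, chr1:51288876-51289125: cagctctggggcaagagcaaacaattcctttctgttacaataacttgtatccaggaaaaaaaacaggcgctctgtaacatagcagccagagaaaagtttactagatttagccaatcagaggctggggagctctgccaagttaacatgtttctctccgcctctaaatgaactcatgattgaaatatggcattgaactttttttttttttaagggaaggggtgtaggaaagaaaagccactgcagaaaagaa

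The *Cav2* window held 3 matches to CAGAC, and the windows of *Cav1*, *Cav3*, and *Cavin2* held 0. A later *Cav1* start in the same table, with its window at chr6:17307390-17307639, held 2 matches. Among 32851 promoter windows of this length, 42.2% held CAGAC. None of the 4 printed windows held a CArG box, the motif of serum response factor, which 1.47% of all windows held, or CATTCC, the letters bound by TEAD proteins, which 12.6% held. Such matches describe the letters only.

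The members differed widely in level. Per kilobase of exon, the mean over the 6 GFPiSMC libraries was 318 ± 195 CPM per kb for *Cavin1* (SD, n = 6), 288 ± 56.8 for *Cav2*, and 208 ± 38.7 for *Cavin3*, and the ranges of these 3 neighbours overlapped. A gap separated them from *Cav3* at 67.0 ± 8.03 CPM per kb, which was above *Cavin2* (33.8 ± 6.10) without overlap, while *Cavin2* overlapped *Cav1* (24.6 ± 3.32). *Cavin4* was at 0.144 ± 0.202 CPM per kb. In the 6 Tgfbr1/2iSMCKO libraries the 3 highest members kept their order by mean, at 381 ± 241, 270 ± 66.9, and 228 ± 16.7 CPM per kb, followed by *Cavin2* (74.8 ± 22.8), *Cav1* (39.2 ± 7.67), and *Cav3* (28.5 ± 7.65). There *Cavin2* did not overlap *Cav1*, but *Cav1* and *Cav3* overlapped. These levels divide by the union of annotated exons, so a gene whose SMC transcripts are shorter than that union is understated.

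**Figure D1:**
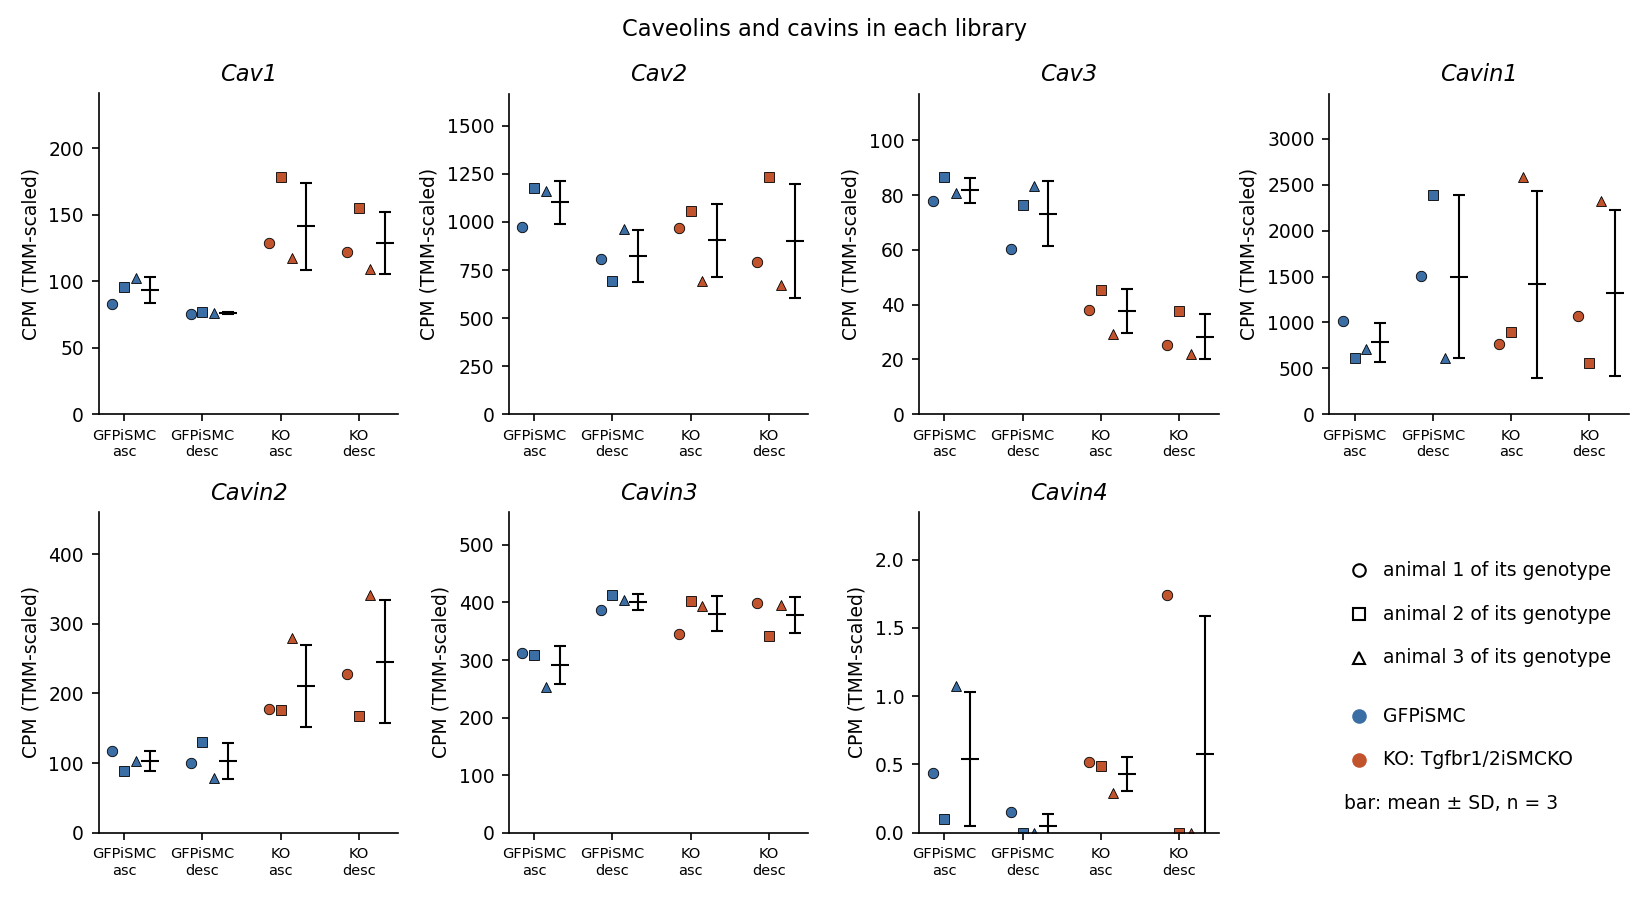
CPM (TMM-scaled, linear axes from 0) of each caveolin and cavin in the 12 libraries, by genotype and segment, with the symbol shape giving the animal and the bar the mean ± SD of 3 libraries. All 6 Tgfbr1/2iSMCKO libraries lie above all 6 GFPiSMC libraries for *Cav1* and *Cavin2* and below them for *Cav3*.

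In the fit of all 12 libraries, *Cav3* was lower and *Cav1* and *Cavin2* were higher in Tgfbr1/2iSMCKO than in GFPiSMC SMCs. *Cav2*, *Cavin1*, *Cavin3*, and *Cavin4* were not called. That fit treats both segments of an animal as separate samples, and with counts summed per animal *Cav3* was the 1 member called. Over the 12 libraries, with segment in the model, 3 of 7 members were called, 2 higher and 1 lower, where 5.03% of all genes tested were called (1.8% higher and 3.23% lower). *Cav3* and *Cavin2* also passed a 2-fold change, which 2.67% of all genes did with an adjusted p under 0.05. The median log2 fold change of the 7 members was 0.34, beside 0.04 over all genes. All 7 members passed the filter on low counts, *Cavin4* with at most 42 counts in a library.

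*Cav3*, the caveolin best known from striated muscle, was at 78.0, 86.7, and 80.6 CPM in the ascending/arch libraries of GFPiSMC animals 1, 2, and 3 and at 60.1, 76.3, and 83.3 CPM in their descending libraries. In Tgfbr1/2iSMCKO it was at 38.1, 45.3, and 29.3 CPM in ascending/arch and at 25.2, 37.5, and 22.1 CPM in descending libraries. Every Tgfbr1/2iSMCKO library was below every GFPiSMC library, a separation that 4.39% of all genes showed in 1 direction or the other. *Cav3* fell to 0.421 times its GFPiSMC level (log2 fold change −1.25, SE 0.16, edgeR adjusted p = 0.000433). When counts were summed over both segments, leaving 3 animals against 3, it was the 1 member still called (−1.22, SE 0.19, edgeR adjusted p = 0.0207), with 1.86% of 24275 genes called in that fit. Of 13 markers of cardiac and skeletal muscle, 10 passed the filter. Over the 12 libraries edgeR called 5.03% of all genes and gave 16.1% an unadjusted p under 0.05. Of the 10 markers it called none, with 4 at an unadjusted p under 0.05. With counts summed per animal, 11 passed the filter and 1 was called, higher in Tgfbr1/2iSMCKO (edgeR adjusted p = 0.0365). The 13 markers summed to 63.7 to 117 CPM in GFPiSMC and 68.7 to 169 CPM in Tgfbr1/2iSMCKO libraries. On average *Ryr2* (mean over 12 libraries, 48.3 CPM) and *Tnnt2* (28.6 CPM) made up most of that sum, while *Myl7* was at 0 in all 12 and *Nppa* at 0 in 9.

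*Cav1*, the main structural caveolin outside striated muscle, was at 83.1, 95.5, and 102 CPM in ascending/arch and at 75.1, 76.8, and 76.0 CPM in descending libraries of GFPiSMC animals 1, 2, and 3. The Tgfbr1/2iSMCKO libraries held 129, 179, and 117 CPM in ascending/arch and 122, 155, and 109 CPM in descending segments. The genotypes did not overlap, with animal 2 the highest of the Tgfbr1/2iSMCKO mice in both segments. *Cav1* rose 1.60-fold (log2 fold change 0.68, SE 0.13, edgeR adjusted p = 0.00696). Summed per animal, the same change was not called (0.68, SE 0.16, edgeR adjusted p = 0.101), and without GFPiSMC animal 1 the 12-library call was lost (0.62, edgeR adjusted p = 0.0587).

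*Cav2*, which needs caveolin-1 to reach the plasma membrane, was the most abundant caveolin in every library. GFPiSMC libraries held 972, 1174, and 1159 CPM in ascending/arch and 809, 694, and 961 CPM in descending segments, and Tgfbr1/2iSMCKO libraries held 966, 1055, and 690 and then 793, 1235, and 670 CPM. The genotypes overlapped over most of their range. The log2 fold change was −0.08 (SE 0.16, edgeR adjusted p = 0.907), and its sign turned with scaling by library size only (0.046).

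The make-up of the caveolin transcripts differed between genotypes while *Cav2* kept the greatest share. Per length, *Cav1* made up 5.77% to 7.53% of the 3 caveolins in GFPiSMC and 10.1% to 12.8% in Tgfbr1/2iSMCKO libraries, and *Cav3* made up 15.6% to 22.3% and 7.24% to 9.62%. Neither share overlapped between genotypes. *Cav2* took 70.2% to 77.8% and 77.6% to 82.7%. The ratio of *Cav1* to *Cav3* per length was 0.306 to 0.425 in the 6 GFPiSMC libraries and 1.13 to 1.66 in the 6 Tgfbr1/2iSMCKO libraries. Per length, *Cav3* was thus above *Cav1* in every library of the first and below it in every library of the second. The GFPiSMC order rests on the exon lengths, 3444 bases for *Cav1* and 1157 for *Cav3*. In CPM, not divided by length, *Cav1* was at 75.1 to 102 and *Cav3* at 60.1 to 86.7 in GFPiSMC libraries. The ratio of *Cav1* to *Cav2*, the neighbouring genes, was 0.0766 to 0.107 and 0.122 to 0.164. The 3 caveolins together summed to 380 ± 65.0 CPM per kb in GFPiSMC and 338 ± 79.7 in Tgfbr1/2iSMCKO libraries (SD, n = 6), with overlapping ranges. These shares follow from the same counts as the gene-wise tests and were not tested again.

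**Figure D2:**
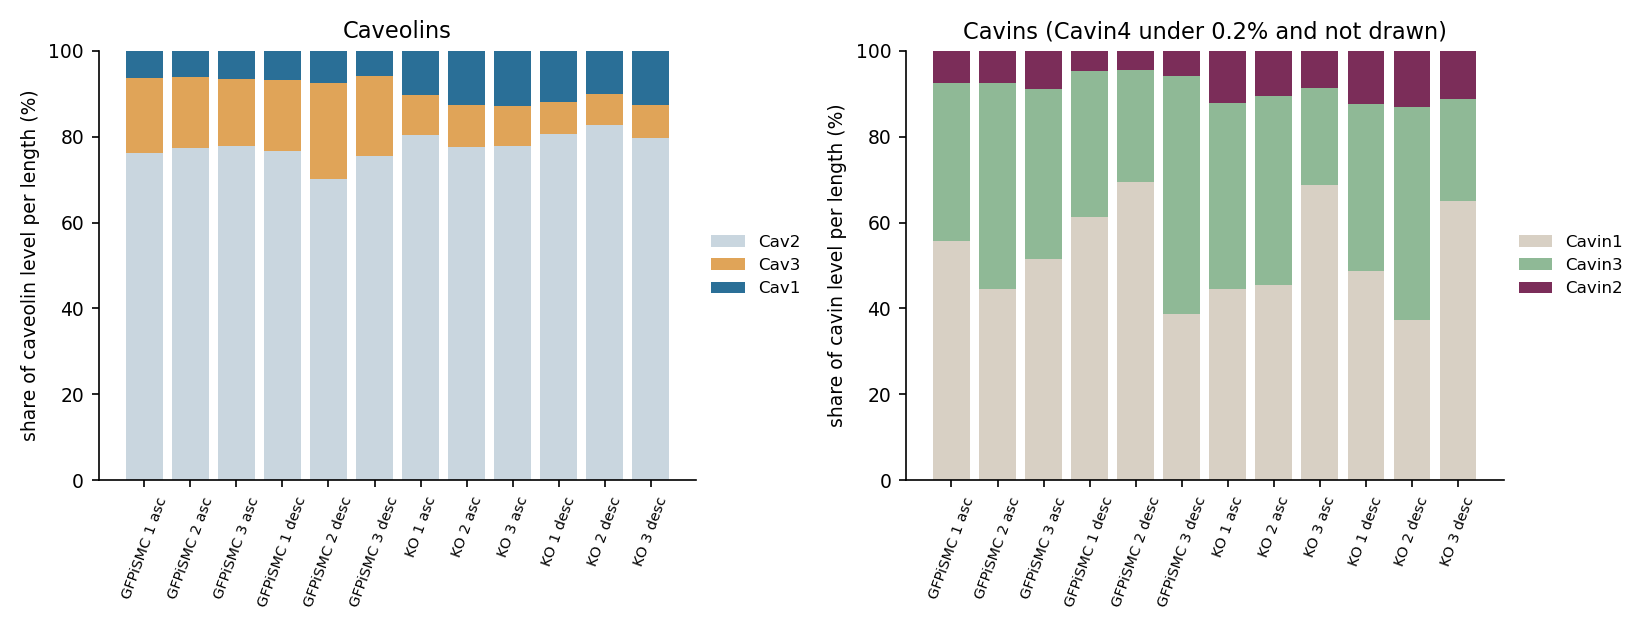
Share (%) of each caveolin in the caveolin total and of each cavin in the cavin total, per kilobase of exon, with 1 stacked bar for each of 12 libraries. The *Cav1* share is 5.77% to 7.53% in GFPiSMC and 10.1% to 12.8% in Tgfbr1/2iSMCKO libraries, and the *Cavin1* share spans 37.4% to 69.5% with no split by genotype.

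*Cavin2*, a cavin that shapes the caveolar coat and binds phosphatidylserine, was at 117, 89.1, and 103 CPM in ascending/arch and at 101, 131, and 78.9 CPM in descending libraries of GFPiSMC animals 1, 2, and 3. Tgfbr1/2iSMCKO libraries held 178, 176, and 279 CPM in ascending/arch and 229, 168, and 341 CPM in descending segments. All 6 were above the highest GFPiSMC library, and animal 3 was the highest in both segments. *Cavin2* rose 2.21-fold (log2 fold change 1.14, SE 0.19, edgeR adjusted p = 0.00272). Without Tgfbr1/2iSMCKO animal 3 the change was smaller and still called (0.85, SE 0.15, edgeR adjusted p = 0.00783), and summed per animal it was not called (1.16, SE 0.24, edgeR adjusted p = 0.0523). Per length, *Cavin2* relative to *Cavin3* was 0.106 to 0.222 in GFPiSMC and 0.238 to 0.469 in Tgfbr1/2iSMCKO libraries. Relative to *Cavin1* it was 0.0643 to 0.171 and 0.127 to 0.351, and its share of the cavins was 4.47% to 8.80% and 8.70% to 13.2%. The ratio to *Cavin3* did not overlap between genotypes, whereas the ratio to *Cavin1* and the share did.

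*Cav1* and *Cavin2* are also abundant in endothelial cells and adipocytes, so markers of those cells are given beside them. All 10 endothelial markers passed the filter and 1 was higher, *Cdh5* (log2 fold change 2.97, SE 0.70, edgeR adjusted p = 0.0250), at a mean of 0.713 CPM over the 12 libraries and 0 in 2 of them. The log2 fold changes of 9 of the 10 were positive, with a median of 0.82 (0.04 over all genes) and 3 at an unadjusted p under 0.05 (*Cdh5*, *Vwf*, and *Nos3*). *Vwf*, von Willebrand factor, was at 1.20 (SE 0.38, edgeR adjusted p = 0.102), and *Nos3*, endothelial nitric oxide synthase, at 0.85 (SE 0.38, edgeR adjusted p = 0.283). In descending SMCs 5 of the 10 (*Cdh5*, *Vwf*, *Tek*, *Tie1*, and *Nos3*) were higher in every Tgfbr1/2iSMCKO than in every GFPiSMC library, where 14.9% of all genes did not overlap in either direction, and in ascending/arch SMCs 1 (*Cdh5*) was, where 19% did not. The 10 summed to 69.4 to 102 CPM in GFPiSMC and 59.3 to 111 CPM in Tgfbr1/2iSMCKO libraries, most of it *Pecam1*. Of 8 adipocyte markers, 4 passed the filter and 1 was higher, *Pparg* (1.94, SE 0.34, edgeR adjusted p = 0.00354), with 2 of the 4 at an unadjusted p under 0.05. Their sums were 68.9 to 141 and 79.1 to 112 CPM, most of it *Fabp4*, with *Cfd* at 0 in 11 libraries, *Cidec* in 9, and *Retn* in 7. Fibroblast markers summed to 58.1 to 160 and 29.8 to 147 CPM, with 7 of 8 past the filter and 2 lower. Of these 7, 4 had positive and 3 negative log2 fold changes (median, 0.24). Macrophage markers summed to 7.12 to 19.8 and 12.8 to 23.3 CPM, with 7 of 8 past the filter and none called (2 at an unadjusted p under 0.05). Of these 7, 6 were positive and 1 negative (median, 0.57). Over the 12 libraries edgeR called 5.03% of all genes, and 16.1% had an unadjusted p under 0.05. The part of these cells in the *Cav1* and *Cavin2* results was not tested.

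*Cavin3* was the steadiest member, with an SD of 13.9% of its mean over the 12 libraries. In GFPiSMC it was at 312, 309, and 253 CPM in ascending/arch and at 386, 413, and 405 CPM in descending libraries, and in Tgfbr1/2iSMCKO at 346, 403, and 393 and at 398, 342, and 395 CPM. The 3 GFPiSMC ascending/arch libraries were the lowest of the 12. The genotype difference over 12 libraries was not called (log2 fold change 0.15, SE 0.11, edgeR adjusted p = 0.602). *Gm45667*, a transcript on the opposite strand, overlaps *Cavin3* and held 939 to 2115 counts, 12.0% to 17.3% as many as *Cavin3*, and since the sources state no strand setting the reads of the pair cannot be told apart. The antisense genes over *Cav1* and *Cav2* (*Gm15581*) and over *Cavin2* (*9330175M20Rik*) held at most 33 and 14 counts.

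*Cavin4*, the striated muscle cavin, was near the limit of detection. It had 12, 3, and 26 counts in ascending/arch and 4, 0, and 0 counts in descending GFPiSMC libraries, and 15, 10, and 9 counts and then 42, 0, and 0 counts in Tgfbr1/2iSMCKO libraries. A count of 0 allows up to 3 counts, or 0.101 to 0.124 CPM in the 4 libraries concerned, for counting error only. No genotype difference was detectable at this depth (edgeR adjusted p = 0.747).

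*Cavin1*, the cavin without which caveolae do not form, varied more than any other abundant member, from 560 to 2588 CPM. GFPiSMC libraries held 1021, 617, and 708 CPM in ascending/arch and 1505, 2385, and 612 CPM in descending segments, and Tgfbr1/2iSMCKO libraries held 766, 896, and 2588 and then 1075, 560, and 2323 CPM. High and low values occurred in both genotypes. The genotype difference was not called (log2 fold change 0.34, SE 0.43, edgeR adjusted p = 0.818), and without Tgfbr1/2iSMCKO animal 3 its sign turned (−0.39, SE 0.35, edgeR adjusted p = 0.688).

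The *Cavin1* level ran against the number of sorted cells. The 5 libraries with 9208 to 12526 cells held 1021 to 2588 CPM of *Cavin1* and the 7 libraries with 14360 to 20000 cells held 560 to 1075 CPM. Both genotypes showed this order: in GFPiSMC the 3 libraries with the fewest cells had 2385, 1505, and 1021 CPM and the other 3 had 612 to 708 CPM, and in Tgfbr1/2iSMCKO the 2 with the fewest had 2588 and 2323 CPM and the other 4 had 560 to 1075 CPM. Mitochondrial genes took 2.39% to 3.53% of counts in the 5 libraries with the fewest cells and 3.78% to 4.98% in the other 7, and the 100 most abundant genes took 23.8% in both libraries of Tgfbr1/2iSMCKO animal 3, which held the highest and the third highest *Cavin1*, and 26.2% to 28.0% in the other 10. The part of these shares in the *Cavin1* level was not tested. In a fit with log2 cell number beside segment and genotype, added after the values were seen, *Cavin1* fell by 2.12 on the log2 scale per doubling of cells (SE 0.24, edgeR adjusted p = 0.000408), *Cavin2* fell by 0.73 (SE 0.20, edgeR adjusted p = 0.0222), and *Cav2* rose by 0.70 (SE 0.15, edgeR adjusted p = 0.00638). In that fit 18% of all genes were called for cell number. *Cav1*, *Cav3*, *Cavin3*, and *Cavin4* were not called for it.

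With cell number in the model, the genotype differences of *Cav1* (log2 fold change 0.64, edgeR adjusted p = 0.00382), *Cav3* (−1.31, edgeR adjusted p = 0.000152), and *Cavin2* (1.24, edgeR adjusted p = 9.32e-05) stayed called. *Cavin1* was then called as well (0.58, SE 0.16, edgeR adjusted p = 0.0387), which made 4 of 7 members, where 12.2% of all genes were called for genotype in that fit. Both libraries of Tgfbr1/2iSMCKO animal 3, both libraries of GFPiSMC animal 1, and the descending library of GFPiSMC animal 2 were under 13000 cells. That fit treats the segments of an animal as separate samples, and the part of cell number in the genotype differences was not tested per animal.

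**Figure D3:**
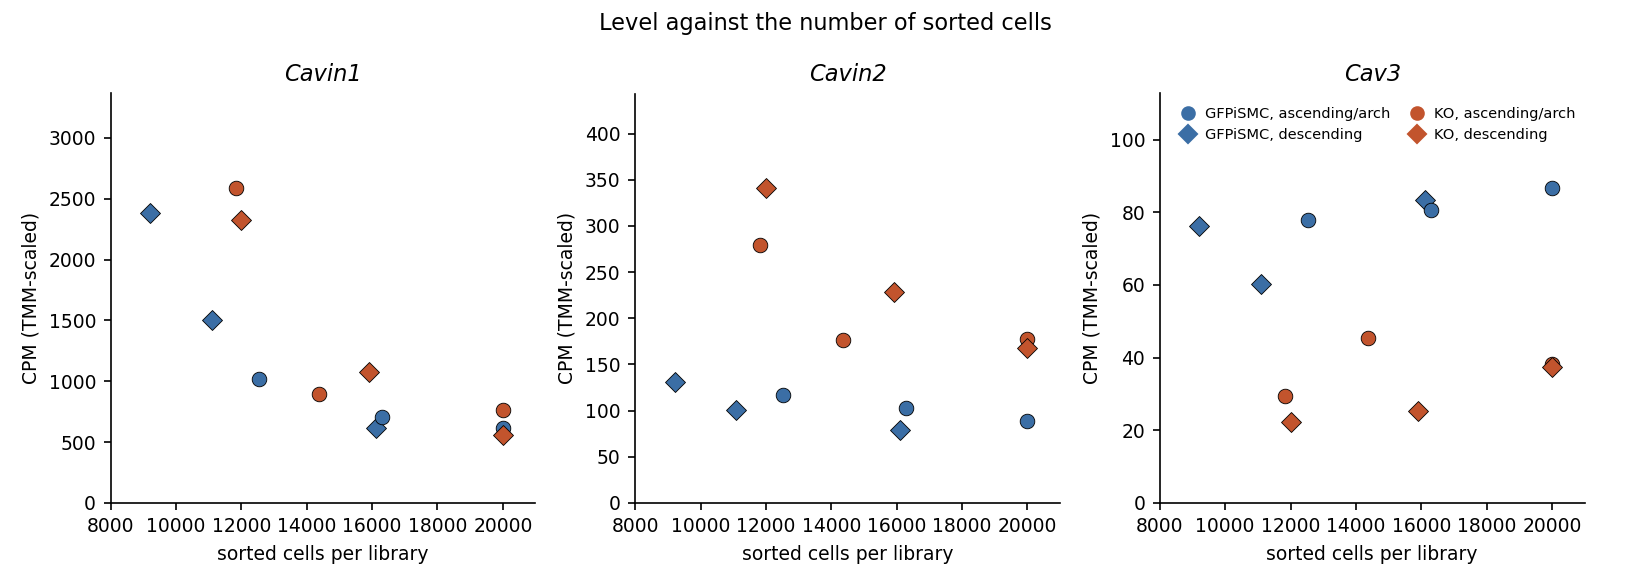
CPM (TMM-scaled, linear axes from 0) of *Cavin1*, *Cavin2*, and *Cav3* against the number of sorted cells in each of 12 libraries, with colour for genotype and shape for segment. *Cavin1* is at 1021 to 2588 CPM in the 5 libraries with at most 12526 cells and at 560 to 1075 CPM in the other 7, while the genotypes stay apart for *Cav3*.

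Within each segment the same members led, with fewer libraries behind each call. In ascending/arch SMCs, *Cav3* was the 1 member called (log2 fold change −1.12, SE 0.24, edgeR adjusted p = 0.0380), where 1.41% of all genes were. *Cavin2* (1.03, SE 0.28, edgeR adjusted p = 0.113), *Cav1* (0.60, SE 0.19, edgeR adjusted p = 0.20), and *Cavin3* (0.39, SE 0.13, edgeR adjusted p = 0.244) were not. These 4 members had an unadjusted edgeR p under 0.05 in ascending/arch SMCs, where 11.4% of all genes did. In descending SMCs 3 of 7 members did, beside 10.7% of all genes. The *Cav3* call was lost without any 1 animal other than Tgfbr1/2iSMCKO animal 2, with log2 fold changes of −1.27 to −0.98. In descending SMCs, *Cav3* (−1.37, SE 0.24, edgeR adjusted p = 0.0104) and *Cavin2* (1.25, SE 0.28, edgeR adjusted p = 0.0451) were called and *Cav1* was not (0.76, SE 0.19, edgeR adjusted p = 0.0767), where 1.72% of all genes were called. There the *Cavin2* call was lost without any 1 animal other than Tgfbr1/2iSMCKO animal 2 (log2 fold changes, 0.92 to 1.46), and the *Cav3* call was lost without Tgfbr1/2iSMCKO animal 1, GFPiSMC animal 2, or GFPiSMC animal 3 (−1.63 to −1.24 over all 6 animals left out).

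**Figure D4:**
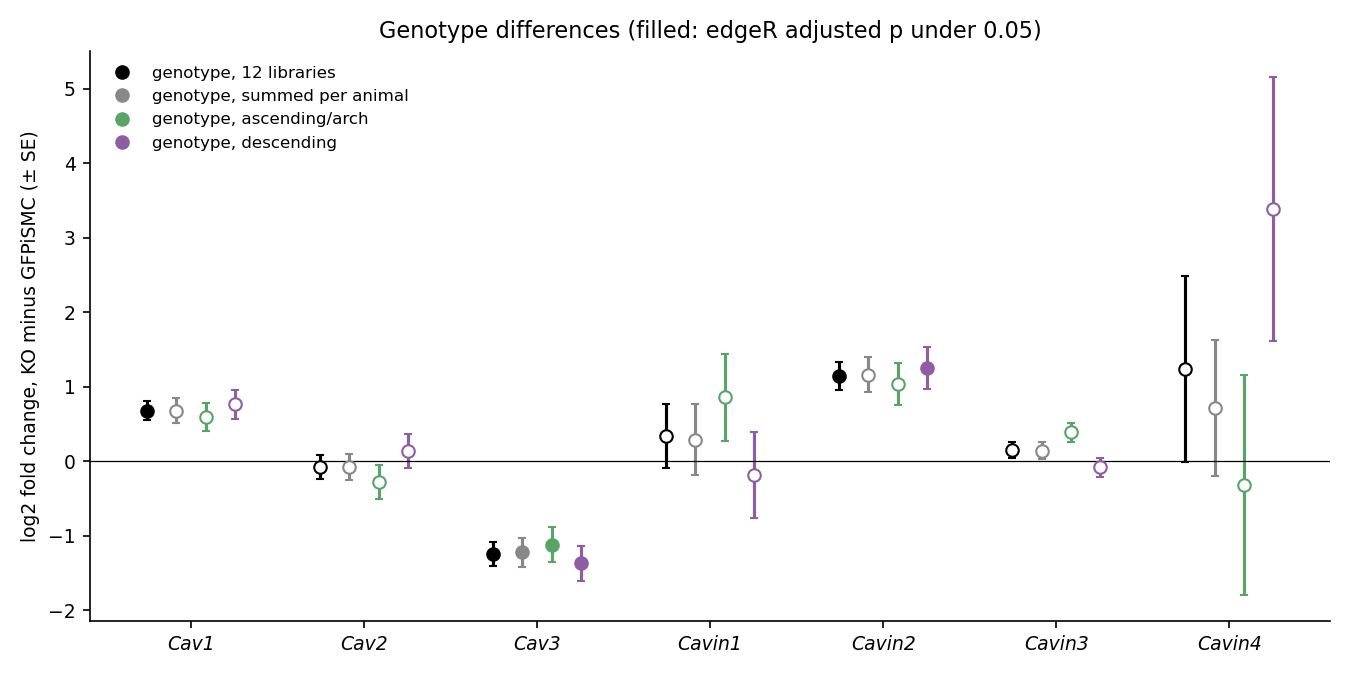
Log2 fold change (Tgfbr1/2iSMCKO minus GFPiSMC, ± SE, edgeR) of each member over 12 libraries, with counts summed per animal, and within each segment, where filled symbols have an adjusted p under 0.05. *Cav3* is filled in all 4 fits, between −1.37 and −1.12, and the *Cavin4* bars are the widest.

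The genotype effect was not shown to differ between segments for any member, with 0 of 7 called by edgeR for genotype by segment, as for all 22320 genes, and 1 of 7 at an unadjusted p under 0.05, where 2.95% of all genes were. DESeq2 called 8 genes, none of them a member. The 1 member with an unadjusted edgeR p under 0.05 was *Cavin3*, with a difference of log2 fold changes of −0.47 (SE 0.19). Its genotype difference was 0.39 in ascending/arch SMCs and −0.08 in descending SMCs, and neither was called. Between segments of GFPiSMC animals, *Cavin3* was 0.46 higher in the descending aorta (SE 0.13, edgeR adjusted p = 0.345), *Cav1* was at −0.30 (SE 0.19, edgeR adjusted p = 0.910), and *Cav2* was at −0.42 (SE 0.23, edgeR adjusted p = 0.910). For these 3 of 7 members the 3 descending libraries did not overlap the 3 ascending/arch libraries, above them for *Cavin3* and below them for *Cav1* and *Cav2*, a separation that 13% of all genes showed in 1 direction or the other. No member was called between segments in either genotype, where 0.376% of all genes were in GFPiSMC and 0.112% in Tgfbr1/2iSMCKO, and at an unadjusted p under 0.05 edgeR gave 1 member in GFPiSMC (5.98% of all genes) and 0 in Tgfbr1/2iSMCKO (3.68%).

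Apart from *Cav1* beside *Cav2*, none of the nearest tested protein-coding genes was called for genotype by edgeR, where 5.03% of all genes were. Of these other neighbours, 3 (*Tes*, *Atp6v0a1*, and *Tmeff2*) had an unadjusted p under 0.05, where 16.1% of all genes did. *Cav1* differed while *Cav2*, its neighbour at 17219 bases, did not pass the test, and *Met* on the other side was at 0.54 (SE 0.71, edgeR adjusted p = 0.823). *Tes*, beyond *Cav2*, was at 0.31 (SE 0.14, edgeR adjusted p = 0.281). *Oxtr*, the oxytocin receptor gene that ends 810 bases from *Cav3* on the other strand, was at −0.61 (SE 0.74, edgeR adjusted p = 0.802), and *Lmcd1* on the other side of *Cav3* was at 0.12 (SE 0.27, edgeR adjusted p = 0.917). Beside *Cavin2*, *Tmeff2* was at −1.12 (SE 0.36, edgeR adjusted p = 0.110) and *Nabp1* at 0.29 (SE 0.32, edgeR adjusted p = 0.771).

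Genes for the neck and accessory coat of caveolae, which hold the pit at the membrane or cut it free, mostly did not pass the test. Of 12 such genes (EHD ATPases, PACSIN proteins, dynamins, *Ror1*, and *Flna*), 1 was higher and 0 lower, where 5.03% of all genes were called (1.8% higher). The 12 had a median log2 fold change of 0.09 beside 0.04 over all genes. Of them, 3 had an unadjusted edgeR p under 0.05, where 16.1% of all genes did. *Ror1*, a receptor tyrosine kinase-like protein that holds caveolin-1 and cavin-1 together, was at 45.5 to 76.7 CPM in GFPiSMC (median, 58.97) and 74.3 to 108 CPM in Tgfbr1/2iSMCKO libraries (median, 94.7). The ranges overlapped by a single Tgfbr1/2iSMCKO library, and *Ror1* rose 1.55-fold (log2 fold change 0.63, SE 0.14, edgeR adjusted p = 0.0182). The call was lost without any 1 animal other than Tgfbr1/2iSMCKO animal 1 or GFPiSMC animal 3 (log2 fold changes over all 6 animals left out, 0.55 to 0.74). *Ehd4*, an ATPase of the caveolar neck, was at 0.63 (SE 0.19, edgeR adjusted p = 0.0749), and *Pacsin2*, which bends the neck membrane, was at 1.03 (SE 0.43, edgeR adjusted p = 0.247).

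Proteins that reside in or signal from smooth muscle caveolae included 1 higher and 1 lower gene among 16 of 17 tested. Of all genes, 1.8% were higher and 3.23% lower. The 16 had a median of −0.01, and 5 of them had an unadjusted edgeR p under 0.05, where 16.1% of all genes did. *Kcnmb1*, the β1 subunit of the large-conductance calcium-activated potassium channel, was at 670 to 888 CPM in GFPiSMC (median, 772) and 498 to 657 CPM in Tgfbr1/2iSMCKO libraries (median, 569), without overlap. It fell to 0.748 times the GFPiSMC level (log2 fold change −0.42, SE 0.08, edgeR adjusted p = 0.00752), a call that was lost without GFPiSMC animal 3 (−0.37, edgeR adjusted p = 0.0681) and with library size only (−0.29, edgeR adjusted p = 0.0902). *Ednra*, the endothelin A receptor, was at 21.8 to 26.9 CPM in ascending/arch and 4.42 to 8.64 CPM in descending GFPiSMC libraries, and at 28.1 to 43.8 and 15.2 to 21.6 CPM in Tgfbr1/2iSMCKO. The genotypes did not overlap within either segment, as for 19% (ascending/arch) and 14.9% (descending) of all genes, and *Ednra* rose 1.89-fold (0.92, SE 0.23, edgeR adjusted p = 0.0313). The *Ednra* call was lost whichever animal was left out (log2 fold change 0.75 to 1.03, edgeR adjusted p = 0.0543 to 0.117) and with counts summed per animal (0.75, SE 0.24, edgeR adjusted p = 0.221). *Trpc1*, a cation channel subunit, was at −0.36 (SE 0.15, edgeR adjusted p = 0.259).

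Other lists gave no call over the 12 libraries. Among flotillins and stomatins, which scaffold other membrane domains, 5 of 6 genes were tested with a median of 0.44, and *Stom* was at 0.45 (SE 0.13, edgeR adjusted p = 0.0582), *Stoml1* at 0.59 (SE 0.42, edgeR adjusted p = 0.588), and *Flot2* at 0.44 (SE 0.44, edgeR adjusted p = 0.745). The 7 kinase and phosphatase genes of caveolin-1 tyrosine phosphorylation had a median of −0.06, with *Src* at −0.62 (SE 0.21, edgeR adjusted p = 0.121), *Csk* at −0.38, and *Yes1* at 0.36. Of 7 striated muscle partners of caveolin-3 and cavin-4, 6 were tested with a median of 0.06, and *Dysf*, the membrane repair protein dysferlin, was at −0.68 (SE 0.24, edgeR adjusted p = 0.135), *Popdc2* at 0.53, and *Dag1* at −0.31. At an unadjusted p under 0.05, edgeR gave 1, 1, and 2 genes of these 3 lists, where 16.1% of all genes passed. Summed per animal, no gene of the 5 lists was called by edgeR, where 1.86% of all genes were. In that fit 3 (coat), 1 (flotillins and stomatins), 1 (kinases), 3 (caveolar proteins), and 2 (caveolin-3 partners) had an unadjusted p under 0.05. Of all genes in that fit, 11.6% did. With cell number in the model, *Ehd4*, *Stom*, *Stoml1*, *Src*, and *Dysf* were called in addition, each with the direction given above, where 12.2% of all genes were called.

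**Figure D5:**
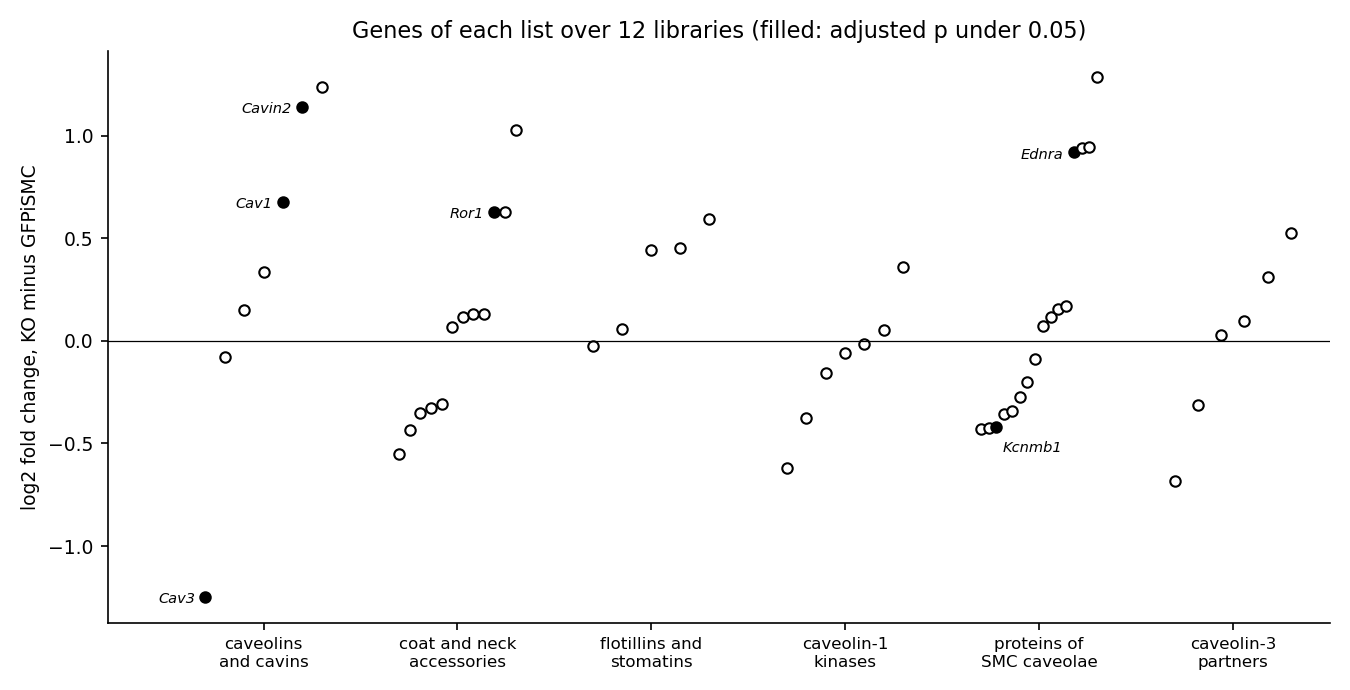
Log2 fold change (Tgfbr1/2iSMCKO minus GFPiSMC, edgeR, 12 libraries) of each tested gene of the caveolins and cavins and of 5 lists of related genes, ordered by value within a list, where filled points have an adjusted p under 0.05. Filled points are *Cav3*, *Cav1*, and *Cavin2* among the members, *Ror1* in the coat list, and *Kcnmb1* and *Ednra* among proteins of smooth muscle caveolae.

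Genes with the most similar pattern were found as those with the smallest root mean square difference of centred log2 CPM over the 12 libraries, among 9210 genes with a mean log2 CPM of at least 3. For *Cav3*, whose own SD was 0.72, these were *Dact3* (0.16), *Tagln2* (0.19), and *Cd59a* (0.21). *Cavin2* (SD 0.67) was nearest to *Ldhb* (0.17), *Selenbp1* (0.19), and *Acaa2* (0.20). *Cavin1* (SD 0.81) was nearest to *Islr* (0.11), *Puf60* (0.13), and *Anxa6* (0.14). The nearest to *Cav1* (SD 0.41) were *Gm8834* (0.13), *Gstm2-ps1* (0.14), and *Ggps1* (0.15), of which the first 2 are processed pseudogenes whose reads may come from other copies. *Cav2* (SD 0.32) was nearest to *Ube2w* (0.073), *Tram1* (0.089), and *Pdcd10* (0.093), and *Cavin3* (SD 0.22) to *Dgkb* (0.10), *Aes* (0.11), and *Pmpcb* (0.11). For *Cavin4* no gene came closer than 1.11 (*Apoe*), followed by *Sox9* (1.13) and *Smim3* (1.22), beside its own SD of 1.63. All points share the same 12 libraries, so these values are descriptions.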

How the data were processed

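Whole-number counts per gene were deposited by the authors for the 12 libraries, not normalized. GFP+ SMCs had been sorted into lysis buffer and libraries made with a low-input kit. Per the study's methods, reads were trimmed with Trim Galore, aligned with HISAT2 to GRCm38, and quantified on GENCODE gene models with StringTie, and the authors compared genotypes with DESeq2. Across the matrix 22574 values were 1 and 32279 were 2, and counts divided by 2 were run as an alternative. Symbols, positions, and exon lengths came from a later GENCODE release on the same build (52489 genes matched).

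Low genes were removed with filterByExpr, and edgeR 4.0.16 (R 4.3.3) was run with TMM factors and quasi-likelihood fits of segment and genotype over 12 libraries, or of 4 group means for comparisons within a genotype or segment, adjusted over 22320 genes. Dividing a log2 fold change by the root of its F statistic gave the SE. The 12-library fit treats both segments of an animal as separate samples, and the fit of counts summed per animal does not. For a single value, an exact permutation test of 3 animals against 3 stops at 0.10, so every p is from a genome-wide model. The library names tie the segments to animals. After removal of group means, the correlation between segments of an animal was −0.242 to 0.661.

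The text names all members, the called genes of each list with at most 3 of the smallest adjusted p beyond those, the nearest genes on either side, and the 3 most similar genes. Neighbours of *Cavin1*, *Cavin3*, and *Cavin4* were tested and not called. Members and lists were chosen with earlier results of these data known. Alternatives were RLE factors, library size only, a filter at 1 count or at a mean of 50 counts, DESeq2 1.42.0, limma-voom (limma 3.58.1) with the animal as a random effect, counts divided by 2 or summed per animal, replicate blocks, segments fitted alone, each animal left out, and, chosen after the data were seen, log2 sorted cell number as a covariate. The fits were run on simulated counts drawn independently for each library, which cannot test the link between segments of an animal. The limit set there on false calls did not cover DESeq2. Plots were made in Python 3.11.15 (matplotlib 3.10.9).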

Additional observations from a re-analysis of the deposited data

How the results depend on the processing

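Over the 12 libraries 3 of 7 members were called, and 1 was with counts summed per animal and 2 to 3 with an animal left out. In ascending/arch SMCs the 1 call became 0 with library size only and 0 to 1 with an animal left out, and 2 with a minimum mean of 50 counts, with DESeq2, or with cell number as a covariate. In descending SMCs the 2 calls became 0 with the segment fitted alone and 0 to 2 with an animal left out. The replicate number pairs no animals across genotypes (correlations of same-numbered libraries, −0.527 to 0.216). With the replicate block over 12 libraries 3 members stayed called, with the block and each segment fitted alone 0 were called in either segment (0 and 0), and with the animal as a replicate block 0 were called between segments or for genotype by segment. The causes were not tested, beyond fewer samples and genes in fits of 1 segment. The median log2 fold change of all genes was 0.04 with TMM and 0.16 with library size only, where *Cav1* was at 0.80, *Cav3* at −1.12, and *Cavin2* at 1.27.

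Signs turned for values that were not called. With library size only, *Cav2* over 12 libraries was 0.046, *Cavin3* in descending SMCs 0.065, *Cavin2* between GFPiSMC segments −0.038, and between Tgfbr1/2iSMCKO segments *Cav2* was 0.012 and *Cavin3* 0.011. *Cav2* between Tgfbr1/2iSMCKO segments was 0.0021 with RLE factors, 0.0022 with DESeq2, 0.035 with a minimum mean of 50 counts, and 0.020 with counts divided by 2. In the last pair of settings *Cavin3* was 0.023 and 0.011 there, and *Cavin2* between GFPiSMC segments was −0.057 and −0.0096. With a replicate block, *Cavin4* was 0.062 in ascending/arch SMCs and −1.87 between Tgfbr1/2iSMCKO segments, and *Cavin2* was −0.019 between GFPiSMC segments. With cell number as a covariate, *Cav2* was −0.17 and *Cavin1* 0.67 in descending SMCs, *Cavin1* was 0.18 for genotype by segment, *Cav3* was 0.042, *Cavin1* −0.21, and *Cavin2* −0.42 between GFPiSMC segments, and *Cavin3* was 0.0011 between Tgfbr1/2iSMCKO segments.

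With an animal left out, the values over 12 libraries spanned −0.29 to 0.081 for *Cav2*, −0.39 to 0.66 for *Cavin1*, −1.03 to 1.81 for *Cavin4*, −0.43 to 0.79 for *Flot2*, and −0.080 to 0.92 for *Stoml1*. In descending SMCs they spanned −0.17 to 0.29 for *Cav2*, −0.90 to 0.32 for *Cavin1*, and −3.56 to 6.92 for *Cavin4*, which in ascending/arch SMCs spanned −0.81 to 0.66 and for genotype by segment −3.09 to 7.36. Between Tgfbr1/2iSMCKO segments they spanned −0.18 to 0.12 for *Cav2*, −0.27 to 0.017 for *Cavin1*, −0.11 to 0.10 for *Cavin3*, and −6.37 to 1.09 for *Cavin4*, and between GFPiSMC segments −0.29 to 0.17 for *Cavin2*. *Ednra* lost its call with an animal left out (adjusted p 0.0543 to 0.117), and *Kcnmb1* (0.0168 to 0.0681) and *Ror1* (0.0231 to 0.137) did in part. Depth limits *Cavin4* alone among the members.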
